A study of Mus musculus with 9 samples.

Results

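E2 ubiquitin-conjugating enzymes were taken as the genes of the deposited expression table whose symbol begins with Ube2 followed by a letter, with Ube2e1 left out of the set. The rule gave 34 genes of the 23231 in the table, Ube2a and Ube2b among them. Over all 9 libraries, 29 of the 34 had a mean of at least 1 FPKM (a read count divided by gene length and by library depth, so that levels can be set beside each other between genes of different length) and were tested. The symbol rule also takes in genes that are not conjugating enzymes: Ube2v1 and Ube2v2 encode E2 variants without a catalytic cysteine, Ube2cbp encodes a protein described as an E2-binding ligase, and Ube2nl (ENSMUSG00000059585) is annotated as a processed pseudogene in GENCODE M21.

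Ubiquitin reaches a protein through 3 enzymes in turn: an E1 activates it, an E2 carries it as a thioester on a cysteine, and an E3 ligase brings the loaded E2 to the substrate. The E2 sets much of the outcome, because some E2s place the first ubiquitin, others extend chains of a given linkage, and a few carry ubiquitin-like modifiers in place of ubiquitin. Ubr4 encodes a very large E3 of the N-recognin group, which reads degradation signals at the start of proteins, and the E2s known to work with N-recognins are the paralogues Ube2a and Ube2b, the mammalian counterparts of yeast Rad6. In muscle, E2s together with muscle-restricted E3 ligases act in the breakdown of contractile proteins during atrophy.

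The study concerned ubiquitin ligases that affect muscle fibre size, and its mouse part measured RNA after knockdown of Ubr4. All 9 libraries came from tibialis anterior muscles of C57BL/6 mice aged 6 months that had been electroporated with small interfering RNA (siRNA). The groups were Ubr4 siRNA construct 5, Ubr4 siRNA construct 7 and a non-targeting siRNA as control, with 3 libraries each. The labels do not say that the samples came from separate animals or what share of the fibres took up siRNA, so p-values measure the spread between these samples only. Whole muscle was extracted, and fewer cells of a type and less RNA per cell cannot be told apart.

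Ubr4 itself (ENSMUSG00000066036) stood at 3.61, 3.80 and 2.73 FPKM with construct 5 and at 2.25, 2.58 and 3.07 FPKM with construct 7, against 7.82, 10.3 and 9.09 FPKM in the control libraries. Every siRNA library lay below every control library. With both constructs pooled the log2 change of Ubr4 was -1.34 (SE 0.11, limma adjusted p = 0.00574), and an exact two-sided permutation of the library labels gave p = 0.0119, the smallest that 84 regroupings allow. Library depth, worked out from the spacing of the lowest values, was 29312 to 45564 in units of 1000 reads. For a gene model of 1 kilobase a limit of 3 reads comes to between 0.0658 and 0.102 FPKM, which allows for counting error alone. Skeletal muscle markers such as Acta1 and Ckm were among the most abundant transcripts in every library, and none of the 10 muscle markers passed the test with either construct. In 3 of the 10 (Acta1, Tnni2 and Tnnt3) all 6 siRNA libraries lay below all 3 control libraries, beside 1.45% of all genes, at log2 changes with both constructs pooled of -0.24, -0.25 and -0.22 in that order. Summed macrophage markers ran from 194.5 to 358.7 FPKM with construct 5 and from 96.7 to 143.6 FPKM with construct 7, against 120.3 to 178.4 FPKM in the control libraries. Summed fibroblast markers ran from 441.7 to 683.8 FPKM with construct 5 and from 279.6 to 302.3 FPKM with construct 7, against 350.9 to 405.8 FPKM in the control libraries. With construct 5, 2 of 9 tested macrophage markers (Lyz2 and Ptprc) and 1 of 6 fibroblast markers (Col1a2) passed, all higher, beside 4.67% of all genes called higher, and with construct 7 none passed, beside 0.0556% of all genes called. All construct 5 libraries lay above control in 8 of the 9 macrophage markers, beside 33.0% of all genes, and all construct 7 libraries lay below control in 4 of the 6 fibroblast markers, beside 6.26%. Their part in the E2 values was not tested.

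The E2 transcripts of the muscle covered a wide range of levels, and Ube2b stood far above the rest. Ube2b made up 29.7% of the summed FPKM of the 34 genes, the first 3 genes (Ube2b, Ube2d3 and Ube2m) 48.3% and the first 8 genes 72.2%. Ube2b ranked first and Ube2d3 second in each of the 9 libraries. Ube2m, Ube2d1 and Ube2r2 followed at means of 35.5, 34.6 and 33.3 FPKM and exchanged places between libraries, Ube2m lying anywhere from place 3 to place 5 and each of the other two from place 3 to place 6. A mean of at least 10 FPKM was reached by 14 genes, 15 lay between 1 and 10 FPKM, and the median of the 29 tested genes was 9.19 FPKM, against 5.17 FPKM for all 10794 tested genes. The 5 genes under 1 FPKM were Ube2e2 (0.614 FPKM), Ube2ql1 (0.216 FPKM), Ube2nl (0.214 FPKM), Ube2v1 (0.145 FPKM) and Ube2u (0.0125 FPKM, listed at 0 in 4 libraries). Nearest to the minimum from above were Ube2cbp (1.19 FPKM) and Ube2t (1.93 FPKM). Replicates agreed closely, with a median coefficient of variation over the tested genes of 6.36% with construct 5, 7.17% with construct 7 and 5.74% in control.

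**Figure D1:**
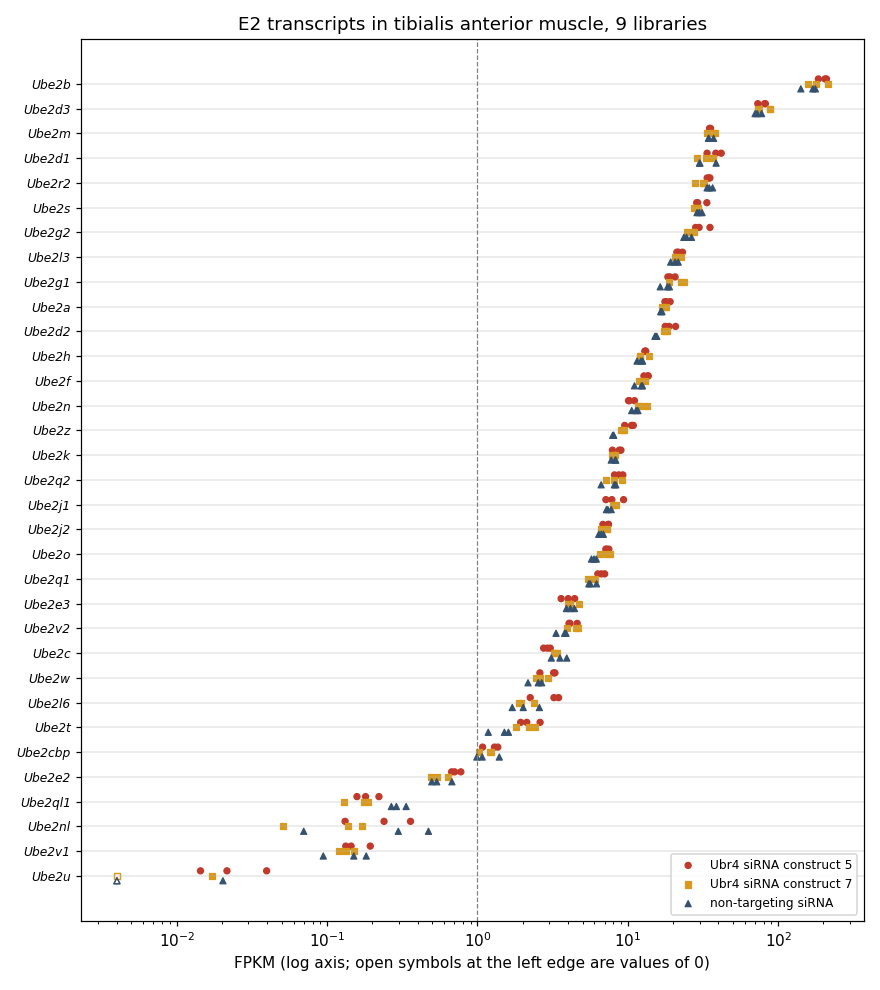
Level of the E2 genes in each library, with FPKM on a logarithmic horizontal axis and genes ordered by their mean over the 9 libraries. Circles are construct 5, squares construct 7 and triangles the non-targeting siRNA. The dashed line marks the minimum of 1 FPKM, and open symbols at the left edge are values of 0. Ube2b stands alone at the top.

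After Ubr4 siRNA, 2 E2 transcripts, Ube2d2 and Ube2z, rose with construct 5, and none passed the test with construct 7. The summed FPKM of the 34 genes was 647 ± 29.6 with construct 5 and 616 ± 40.1 with construct 7, against 574 ± 26.1 in control (SD, n = 3 each). By library it was 672, 615 and 655 with construct 5 and 656, 576 and 618 with construct 7, against 584, 544 and 594 in control. As deposited, the construct 5 libraries thus lay above all control libraries and the construct 7 libraries overlapped them. The divisors of the median-ratio scaling described below were 1.111, 1.072 and 1.019 with construct 5 and 0.9871, 0.9809 and 0.975 with construct 7, against 0.9532, 0.9589 and 0.9762 in control. The sum was not scaled, so a rise particular to the E2 genes cannot be read from it. Ube2b alone had a mean of 199.7 FPKM with construct 5, against 162.7 FPKM in control. With construct 5, limma called 2 of 29, or 6.9%, beside 5.27% of all 10794 genes. Both, Ube2d2 and Ube2z, were higher, as were 4.67% of all genes, and 0 of 29 were called lower, beside 0.602% of all genes. At an unadjusted p under 0.05 there were 10 of 29 with construct 5, beside 31.9% of all genes. With construct 7 limma called 0 of 29, beside 0.0556% of all genes, and 7 of the 29 had an unadjusted p under 0.05, beside 9.47% of all genes. With both constructs pooled it called 0 of 29, beside 0.00926% of all genes, and 7 had an unadjusted p under 0.05, beside 19.1%. A call required a Benjamini-Hochberg adjusted p under 0.05 over all 10794 genes. The share called with construct 5 was thus close to that of all genes.

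On the log2(FPKM + 1) scale, which understates changes of low genes, the 29 genes ran from -0.21 (Ube2c) to 0.41 (Ube2t) with construct 5 and from -0.19 (Ube2r2) to 0.37 (Ube2t) with construct 7. None reached 0.5 in either direction, which 4.56% of all genes did with construct 5 and 1.15% with construct 7. With a pseudocount of 0.1 in place of 1, Ube2t alone was beyond 0.5, at 0.60 with construct 5 (9.38% of all genes) and 0.55 with construct 7 (2.53% of all genes), and its ratio of mean FPKM to control was 1.55 with construct 5 and 1.495 with construct 7. The median change of the 29 was 0.12 with construct 5, where the median of all genes was 0.13, and 0.06 with construct 7, where it was 0.02. Median-ratio scaling, which sets the typical gene to no change, moved the median of the E2 genes to -0.01 with construct 5 and 0.04 with construct 7. With that scaling 13 of 29 had a change above 0 with construct 5, beside 52.4% of all genes, and 19 of 29 with construct 7, beside 49.4%. As deposited, 24 of 29 were above 0 with construct 5 (76.7% of all genes) and 24 of 29 with construct 7 (57.0% of all genes).

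**Figure D2:**
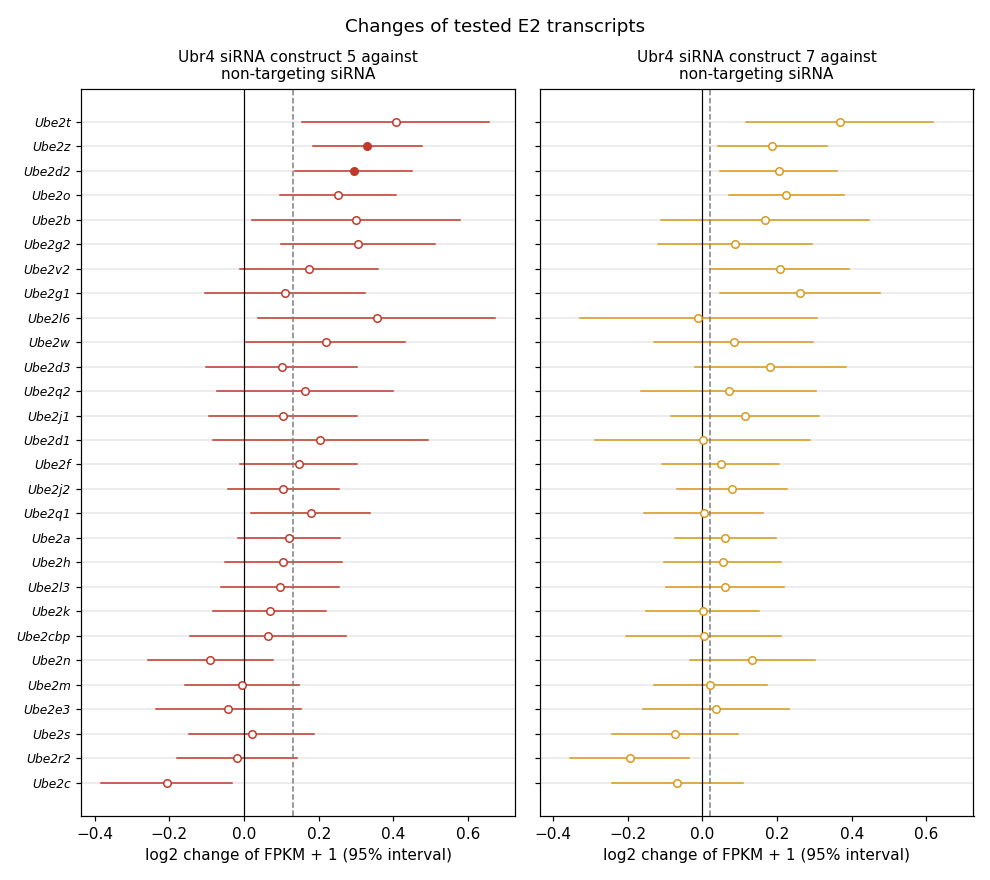
Change of tested E2 genes with construct 5 (left) and construct 7 (right) against the non-targeting siRNA, as log2 change of FPKM + 1 with its 95% interval from limma. Filled points passed at an adjusted p under 0.05, and the dashed line is the median of all 10794 tested genes, 0.13 with construct 5 and 0.02 with construct 7. Only Ube2z and Ube2d2 with construct 5 are filled, and both panels are drawn against the same control libraries.

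In 12 of 29 E2 genes all 3 construct 5 libraries lay above all 3 control libraries, beside 33.0% of all genes, and in 1 (Ube2c) all lay below, beside 5.19%. With construct 7 all 3 libraries lay above the control libraries in 7 genes, beside 10.5% of all genes, and below in 1 (Ube2r2), beside 6.26%. All 6 siRNA libraries lay above the control libraries in 6 genes, beside 8.04% of all genes: Ube2a, Ube2d2, Ube2o, Ube2t, Ube2v2 and Ube2z. In 0 genes did all 6 lie below, beside 1.45% of all genes. Both constructs are set against the same 3 control libraries, so these counts are not independent. After median-ratio scaling the 6 became 3, Ube2d2, Ube2t and Ube2z, beside 4.05% of all genes, and Ube2r2 lay below in all 6 libraries, as did 3.97% of all genes. With construct 5 alone, only Ube2d2, Ube2t and Ube2z stayed wholly above control after that scaling. Ube2c, Ube2m, Ube2n and Ube2r2 then lay wholly below control with construct 5. The shares of all genes after scaling are not given for construct 5 alone.

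**Figure D3:**
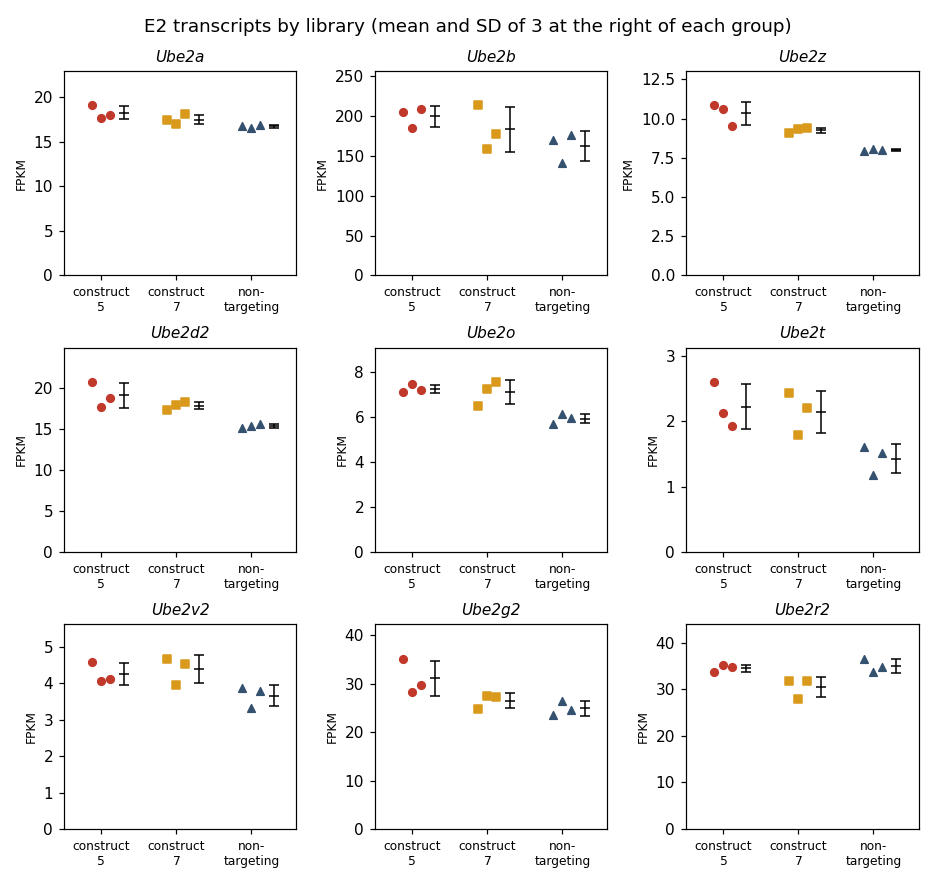
FPKM of 9 E2 genes in each library, with construct 5 (circles), construct 7 (squares) and the non-targeting siRNA (triangles) from left to right in each panel and the mean and SD of the 3 libraries at the right of each group. All vertical axes start at 0. In the panels of Ube2a, Ube2z, Ube2d2, Ube2o, Ube2t and Ube2v2 every siRNA library lies above every control library.

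The E2 partners of N-recognins did not pass the test with either construct. Ube2b (ENSMUSG00000020390) stood at 205, 185 and 209 FPKM with construct 5 and at 214, 159 and 177 FPKM with construct 7, against 170, 141 and 177 FPKM in control. The construct 5 libraries all lay above the control libraries, while the construct 7 libraries overlapped them. The log2 change of Ube2b was 0.30 with construct 5 (SE 0.12, 95% interval 0.02 to 0.58, limma adjusted p = 0.136) and 0.17 with construct 7 (SE 0.12, 95% interval -0.11 to 0.45, limma adjusted p = 0.731). With median-ratio scaling the change of Ube2b was 0.15 with construct 5 (limma adjusted p = 0.505) and 0.14 with construct 7. The construct 5 libraries then overlapped control. Ube2a (ENSMUSG00000016308) stood at 19.1, 17.6 and 18.0 FPKM with construct 5 and at 17.5, 16.9 and 18.0 FPKM with construct 7, against 16.7, 16.6 and 16.8 FPKM in control. The 6 siRNA libraries lay above the tightly grouped control libraries, by little. The log2 change of Ube2a was 0.12 with construct 5 (SE 0.06, limma adjusted p = 0.197), which turned to -0.02 with median-ratio scaling, and 0.06 with construct 7 (SE 0.06, limma adjusted p = 0.812). The 95% interval for Ube2a ran from -0.01 to 0.26 with construct 5 and from -0.07 to 0.20 with construct 7.

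Ube2a and Ube2b encode proteins of 152 residues each that are identical at 145 positions (95.4%) in the coding sequences of GENCODE M21, yet Ube2b transcripts were 10.9 ± 0.614 times as abundant as Ube2a transcripts with construct 5 and 10.5 ± 1.56 times with construct 7, against 9.74 ± 1.04 times in control (SD, n = 3 each). None of the 50-base words in the transcripts of either gene occurs in a transcript of another gene, so reads of this length would not be split between them. Ube2a lies on chromosome X and Ube2b on chromosome 11. The 250 bases upstream of each start in RefSeq (build GRCm38.p6) are printed on the strand of the gene because they differ between these 2 near-identical enzymes. Capitals mark the GC box (GGGCGG, also read as its reverse complement) at chrX:36874045-36874294 (+ strand) and the E-box (CACGTG, its own reverse complement) at chr11:52000787-52001036 (- strand).
Ube2a: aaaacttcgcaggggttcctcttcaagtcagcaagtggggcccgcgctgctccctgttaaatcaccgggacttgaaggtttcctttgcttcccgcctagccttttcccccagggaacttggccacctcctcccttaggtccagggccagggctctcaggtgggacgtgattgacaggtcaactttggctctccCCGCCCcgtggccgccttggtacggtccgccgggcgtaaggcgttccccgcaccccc
Ube2b: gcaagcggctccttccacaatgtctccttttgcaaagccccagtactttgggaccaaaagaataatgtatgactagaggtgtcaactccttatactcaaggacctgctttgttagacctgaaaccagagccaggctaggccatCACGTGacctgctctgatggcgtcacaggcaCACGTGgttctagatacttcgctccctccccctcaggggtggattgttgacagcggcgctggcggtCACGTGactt
The Ube2a window holds 1 GC box and no E-box, and the Ube2b window holds 3 E-boxes and no GC box. Of the 27025 windows of this length in the RefSeq table, 33% hold a GC box and 6.02% an E-box on either strand. Ube2b also had 9 CpG and 53.2% G and C in its window, and Ube2a 15 CpG and 62.8%. A match to these letters is a description of the window and says nothing on binding.

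The E2s of ubiquitin-like modifiers held one of the 2 called genes. Ube2z (ENSMUSG00000014349), which is loaded by the second ubiquitin E1, Uba6, and can carry the modifier FAT10, stood at 10.9, 10.6 and 9.53 FPKM with construct 5 and at 9.05, 9.31 and 9.38 FPKM with construct 7, against 7.93, 8.05 and 8.02 FPKM in control. As deposited the 3 groups did not overlap, with construct 5 highest and control lowest. With median-ratio scaling the constructs overlapped each other, at a log2 change of -0.03 for construct 7 against construct 5. Both stayed above control. Ube2z rose with construct 5 by a log2 change of 0.33 (SE 0.06, 95% interval 0.18 to 0.48, limma adjusted p = 0.0406), and its change with construct 7 was 0.19 (SE 0.06, limma adjusted p = 0.406). The call with construct 5 ended with median-ratio scaling (0.20, adjusted p = 0.0937) and, among single libraries left out, without construct 5 replicate 1 (adjusted p = 0.139) or 2 (0.0765), construct 7 replicate 3 (0.0641) or control replicate 1 (0.119), 2 (0.101) or 3 (0.0975). Uba6 stood at 1.05, 0.979 and 0.729 FPKM with construct 5 and at 0.845, 0.847 and 0.959 FPKM with construct 7, against 0.533, 0.745 and 0.725 FPKM in control, and at a mean under 1 FPKM it was not tested. The Ube2z window at chr11:96065365-96065614 (- strand, GRCm38.p6) is printed for the called gene, with GC boxes in capitals.
Ube2z: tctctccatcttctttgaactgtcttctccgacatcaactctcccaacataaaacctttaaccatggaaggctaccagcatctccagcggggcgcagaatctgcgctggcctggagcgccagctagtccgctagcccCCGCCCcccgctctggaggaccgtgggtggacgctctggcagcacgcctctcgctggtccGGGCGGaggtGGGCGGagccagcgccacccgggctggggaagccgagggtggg
It holds 3 GC boxes, and 17 of the 26 E2 genes with a window in the table hold at least 1.

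The E2s of NEDD8 are Ube2m and Ube2f. Ube2m, next in level after Ube2d3, had log2 changes of -0.01 with construct 5 and 0.02 with construct 7, and Ube2f had 0.15 with construct 5 and 0.05 with construct 7. With median-ratio scaling Ube2m had -0.15 with construct 5 (limma adjusted p = 0.265), wholly below control, and -0.0053 with construct 7. Ube2f then had 0.0099 with construct 5 and 0.0245 with construct 7. Ube2l6, the interferon-induced E2 of ISG15, stood at 3.22, 3.46 and 2.24 FPKM with construct 5 and at 1.93, 2.37 and 1.88 FPKM with construct 7, against 2.58, 2.02 and 1.70 FPKM in control. Construct 5 replicates 1 and 2 lay above all other libraries and replicate 3 within the control range, with a log2 change of 0.36 (SE 0.14, limma adjusted p = 0.126). The summed FPKM of 13 interferon response genes was 44.8, 36.2 and 23.7 with construct 5 and 19.2, 32.9 and 19.0 with construct 7, against 24.9, 20.9 and 20.6 in control, so that construct 5 replicates 1 and 2 were also highest there. Whether Ube2l6 follows that sum was not tested.

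Ube2d2 (ENSMUSG00000091896, named Ube2d2a in GENCODE M21) was the second called gene, from the UbcH5 class, whose members place the first ubiquitin for many RING ligases. It stood at 20.8, 17.7 and 18.8 FPKM with construct 5 and at 17.4, 18.0 and 18.3 FPKM with construct 7, against 15.1, 15.4 and 15.6 FPKM in control. Every siRNA library lay above every control library, and the constructs overlapped each other. Ube2d2 rose with construct 5 by a log2 change of 0.29 (SE 0.07, 95% interval 0.14 to 0.45, limma adjusted p = 0.0492), and its change with construct 7 was 0.20 (SE 0.07, limma adjusted p = 0.398). The call lay at the threshold: it ended with median-ratio scaling (0.15, adjusted p = 0.195) and without any 1 of the 9 libraries, at adjusted p-values that ran from 0.0524 without construct 7 replicate 2 to 0.154 without construct 5 replicate 1.

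The relatives of Ube2d2 did not pass. Ube2d3, whose protein is 96.6% identical to that of Ube2d2, had 78.9 ± 4.95 FPKM with construct 5 and 83.7 ± 8.42 FPKM with construct 7, against 73.4 ± 3.74 FPKM in control (SD, n = 3 each). Its log2 change was 0.10 with construct 5 (limma adjusted p = 0.45) and 0.18 with construct 7 (limma adjusted p = 0.581). Ube2d1 had 38.0 ± 4.10 FPKM with construct 5 and 32.9 ± 4.05 FPKM with construct 7, against 32.9 ± 4.94 FPKM in control. Ube2e3 had a log2 change of -0.04 with construct 5 and 0.04 with construct 7, and Ube2e2 lay under the minimum, at 0.718 ± 0.0524 FPKM with construct 5 and 0.554 ± 0.0737 FPKM with construct 7, against 0.569 ± 0.0942 FPKM in control.

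Among E2s that extend lysine 48 chains, the linkage that marks proteins for the proteasome, 0 of 4 passed with either construct. The shares of all genes called were 5.27% with construct 5 and 0.0556% with construct 7. The changes of the 4 pointed different ways. Ube2g2, the E2 of membrane ligases of endoplasmic reticulum-associated degradation, stood at 35.2, 28.2 and 29.8 FPKM with construct 5 and at 24.8, 27.4 and 27.3 FPKM with construct 7, against 23.6, 26.5 and 24.6 FPKM in control. Its construct 5 libraries lay above all others, and its construct 7 libraries overlapped control. The log2 change of Ube2g2 was 0.30 with construct 5 (SE 0.09, limma adjusted p = 0.0738) and 0.09 with construct 7 (SE 0.09, limma adjusted p = 0.828). With median-ratio scaling it was 0.16 with construct 5 (limma adjusted p = 0.288) and 0.06 with construct 7. The construct 5 libraries then overlapped both other groups. Ube2g1 stood at 19.0, 18.5 and 20.6 FPKM with construct 5 and at 23.7, 18.9 and 22.5 FPKM with construct 7, against 18.9, 16.4 and 18.3 FPKM in control. Here construct 7 replicates 1 and 3 lay above every other library. The log2 change of Ube2g1 was 0.11 with construct 5 (SE 0.10, limma adjusted p = 0.434; -0.03 with median-ratio scaling) and 0.26 with construct 7 (SE 0.10, limma adjusted p = 0.421).

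Ube2r2, a Cdc34-type E2 that works with cullin-RING ligases, was the one tested member whose construct 7 libraries all lay below control as deposited. It stood at 33.7, 35.1 and 34.8 FPKM with construct 5 and at 31.7, 28.0 and 31.8 FPKM with construct 7, against 36.6, 33.7 and 34.8 FPKM in control. The log2 change of Ube2r2 was -0.02 with construct 5 (SE 0.07, limma adjusted p = 0.871) and -0.19 with construct 7 (SE 0.07, limma adjusted p = 0.422). With median-ratio scaling it was -0.16 with construct 5 (limma adjusted p = 0.249) and -0.22 with construct 7 (limma adjusted p = 0.379). Both groups then lay wholly below control. Its close relative Cdc34, which the symbol rule does not take in, lay between Ube2b and Ube2d3 in mean level, at 149.7 ± 9.81 FPKM with construct 5 and 154.6 ± 5.79 FPKM with construct 7, against 159.9 ± 2.78 FPKM in control (SD, n = 3 each). Ube2k, which can build unanchored lysine 48 chains, had 8.56 ± 0.582 FPKM with construct 5 and 8.10 ± 0.212 FPKM with construct 7, against 8.10 ± 0.300 FPKM in control.

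Lysine 63 chains, which serve signalling and DNA repair, are built by Ube2n with a variant partner, Ube2v1 or Ube2v2. Ube2n stood at 10.2, 11.1 and 10.1 FPKM with construct 5 and at 12.1, 13.5 and 11.7 FPKM with construct 7, against 11.3, 10.6 and 11.7 FPKM in control. The construct 7 libraries lay above the construct 5 libraries, and both groups overlapped control as deposited. The log2 change of Ube2n was -0.09 with construct 5 (limma adjusted p = 0.416) and 0.13 with construct 7 (limma adjusted p = 0.627). With median-ratio scaling it was -0.22 with construct 5 (limma adjusted p = 0.122), wholly below control. With construct 7 it was then 0.11 (limma adjusted p = 0.665), wholly above control. Ube2v2 stood at 4.60, 4.06 and 4.12 FPKM with construct 5 and at 4.69, 3.96 and 4.53 FPKM with construct 7, against 3.88, 3.33 and 3.80 FPKM in control, with every siRNA library above every control library. Its log2 change was 0.17 with construct 5 (SE 0.08, limma adjusted p = 0.178) and 0.21 with construct 7 (SE 0.08, limma adjusted p = 0.473). Ube2v1 was listed at 0.157 ± 0.0322 FPKM with construct 5 and 0.134 ± 0.0153 FPKM with construct 7, against 0.142 ± 0.0444 FPKM in control (SD, n = 3 each), and this level is uncertain. In GENCODE M21, 61.5% of its exon length is shared on the same strand with the readthrough gene Gm20431, and 63.5% of its 50-base words occur in other genes, so reads from those stretches cannot be assigned to Ube2v1 by their sequence. Ube2nl shares 28.7% of its 50-base words with Ube2n.

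Ube2c and Ube2s, which start and extend chains for the anaphase-promoting complex in mitosis, and Ube2t, the E2 of the Fanconi anaemia repair pathway, are genes of dividing cells. Ube2t (ENSMUSG00000026429) stood at 2.61, 2.13 and 1.94 FPKM with construct 5 and at 2.43, 1.79 and 2.20 FPKM with construct 7, against 1.61, 1.18 and 1.51 FPKM in control. Every siRNA library lay above every control library. Its change was the largest of the 29 with each construct, at log2 0.41 with construct 5 (SE 0.11, 95% interval 0.16 to 0.66, limma adjusted p = 0.061) and 0.37 with construct 7 (SE 0.11, 95% interval 0.12 to 0.62, limma adjusted p = 0.365), and it did not pass the test. Ube2c (ENSMUSG00000001403) stood at 2.75, 3.05 and 2.91 FPKM with construct 5 and at 3.37, 3.25 and 3.29 FPKM with construct 7, against 3.92, 3.53 and 3.10 FPKM in control. The construct 5 libraries lay below all others, and the log2 change was -0.21 (SE 0.08, limma adjusted p = 0.115) with construct 5 and -0.07 (SE 0.08, limma adjusted p = 0.856) with construct 7. With median-ratio scaling the change of Ube2c was -0.32 with construct 5 (limma adjusted p = 0.0872), still wholly below control. With construct 7 it was then -0.09 (limma adjusted p = 0.783). Ube2s had 30.4 ± 2.67 FPKM with construct 5 and 28.4 ± 0.871 FPKM with construct 7, against 30.0 ± 1.15 FPKM in control (SD, n = 3 each), a level well above that of the other 2 genes.

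Values that bear on these readings were taken from other genes. The summed FPKM of 9 cell division genes (Mki67, Top2a, Ccnb1, Ccna2, Cdk1, Cdc20, Birc5, Plk1 and Aurkb) was 6.94, 8.80 and 4.90 with construct 5 and 1.11, 7.89 and 6.27 with construct 7, against 3.92, 7.35 and 2.56 in control. In construct 7 replicate 1, where the sum was lowest, Ube2t stood at 2.43 FPKM, its second highest value, and Ube2c at 3.37 FPKM. Whether either gene follows that sum was not tested. Ube2c overlaps Tnnc2, the fast troponin C gene, on the opposite strand over 22.8% of its exon length. Tnnc2 stood at 8512, 7575 and 8714 FPKM with construct 5 and at 8379, 8637 and 7397 FPKM with construct 7, against 9710, 8787 and 9838 FPKM in control. Whether the libraries were stranded is not given in the sources used here, and without strand the reads of Ube2c and Tnnc2 in the shared stretch cannot be told apart.

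**Figure D4:**
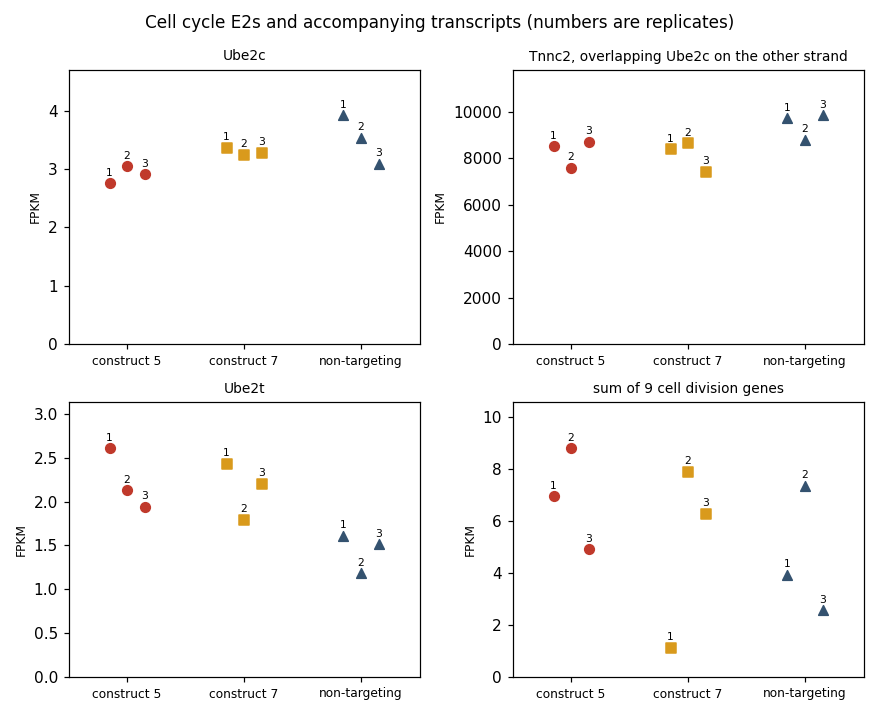
Ube2c and Ube2t (left) beside Tnnc2, which overlaps Ube2c on the other strand, and the summed level of 9 cell division genes (right), in FPKM per library, with construct 5, construct 7 and the non-targeting siRNA from left to right and replicate numbers at the points. The sum is lowest in construct 7 replicate 1, where Ube2t is at 2.43 FPKM and Ube2c at 3.37 FPKM.

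The upstream windows of Ube2t (chr1:134962315-134962564, + strand) and Ube2c (chr2:164769679-164769928, + strand), from RefSeq on GRCm38.p6, are printed because these 2 genes share a motif and had changes of opposite sign. Capitals mark the CCAAT box (CCAAT, or ATTGG on the other strand) and the GC box (GGGCGG, or CCGCCC).
Ube2t: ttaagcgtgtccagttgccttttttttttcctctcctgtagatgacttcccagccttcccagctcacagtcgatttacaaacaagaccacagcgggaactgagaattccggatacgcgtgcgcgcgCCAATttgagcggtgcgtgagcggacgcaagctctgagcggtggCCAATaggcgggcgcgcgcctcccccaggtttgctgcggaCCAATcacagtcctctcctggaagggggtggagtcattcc
Ube2c: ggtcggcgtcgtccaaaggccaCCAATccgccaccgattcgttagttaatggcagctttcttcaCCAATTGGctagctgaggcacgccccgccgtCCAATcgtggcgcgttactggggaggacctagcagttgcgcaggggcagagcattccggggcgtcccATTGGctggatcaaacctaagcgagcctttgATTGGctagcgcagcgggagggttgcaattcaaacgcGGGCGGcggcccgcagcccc
The Ube2t window holds 3 CCAAT boxes and the Ube2c window 6, 2 of which overlap by 2 bases on opposite strands, with 1 GC box. A CCAAT box on either strand occurs in 34.3% of all 27025 windows and in 6 of the 26 E2 windows, namely those of Ube2c, Ube2d3, Ube2f, Ube2l3, Ube2t and Ube2u.

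The remaining E2s included 1 more with all siRNA libraries above control. Ube2o, a very large enzyme that acts as E2 and E3 in one chain and clears proteins during red cell maturation, stood at 7.14, 7.47 and 7.21 FPKM with construct 5 and at 6.53, 7.28 and 7.59 FPKM with construct 7, against 5.73, 6.17 and 5.96 FPKM in control. The siRNA libraries all exceeded the control libraries, with similar means for both constructs. Its log2 change was 0.25 with construct 5 (SE 0.07, limma adjusted p = 0.0601) and 0.23 with construct 7 (SE 0.07, limma adjusted p = 0.365), and with median-ratio scaling it was 0.12 with construct 5 and 0.20 with construct 7. Ube2q1 stood at 7.01, 6.67 and 6.31 FPKM with construct 5 and at 5.85, 5.45 and 6.06 FPKM with construct 7, against 6.19, 5.62 and 5.51 FPKM in control. The construct 5 libraries lay above all others, at a log2 change of 0.18 (SE 0.07, limma adjusted p = 0.125), and the change with construct 7 was 0.00 (SE 0.07, limma adjusted p = 0.998). With median-ratio scaling the change of Ube2q1 with construct 5 was 0.05, and its construct 5 libraries overlapped both other groups.

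Ube2h, which is also abundant in maturing red cells, had 13.1 ± 0.0943 FPKM with construct 5 and 12.6 ± 0.994 FPKM with construct 7, against 12.1 ± 0.523 FPKM in control (SD, n = 3 each). Summed globin and other erythroid transcripts ran from 151.6 to 347.7 FPKM with construct 5 and from 252.7 to 308.1 FPKM with construct 7, against 168.9 to 261.8 FPKM in control, with Slc4a1 at 0.193 FPKM or lower in every library; their part in Ube2h and Ube2o was not tested. The tail-anchored E2s of the endoplasmic reticulum, Ube2j1 and Ube2j2, had log2 changes of 0.10 and 0.11 with construct 5 and of 0.11 and 0.08 with construct 7. Ube2l3, an E2 of HECT and RBR ligases, had 22.0 ± 0.996 FPKM with construct 5 and 21.4 ± 1.03 FPKM with construct 7, against 20.5 ± 1.18 FPKM in control. With construct 5 the log2 changes of Ube2w, which modifies the N-terminus of proteins, Ube2q2 and Ube2cbp were 0.22 (limma adjusted p = 0.149), 0.16 and 0.06 in that order, and with construct 7 they were 0.08, 0.07 and 0.00. Of the 50-base words of Ube2h, 44.21% occur in other genes on either strand. The share is 32.25% for Ube2l3 and 16.38% for Ube2q2, so the levels of these genes are less certain. Ube2ql1, under the minimum and not tested, stood at 0.158, 0.180 and 0.221 FPKM with construct 5 and at 0.187, 0.175 and 0.130 FPKM with construct 7, against 0.267, 0.289 and 0.335 FPKM in control. Its siRNA libraries all lay below the control libraries, and it was picked from the genes under 1 FPKM for that position. The share of all genes this low with the same position was not counted.

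Between the constructs, limma called 0 of 29 E2 genes, beside 1.22% of all genes, and 6 had an unadjusted p under 0.05, beside 23.1%. Construct 7 libraries lay wholly above construct 5 libraries in 2 genes (Ube2c and Ube2n), beside 3.02% of all genes, and wholly below in 5, beside 22.4%, among them Ube2g2, Ube2q1, Ube2r2 and Ube2z. The median change of construct 7 against construct 5 was -0.06 for the E2 genes and -0.10 for all genes. Ube2n had the smallest p, with a log2 change of 0.22 (SE 0.07, 95% interval 0.06 to 0.39, limma adjusted p = 0.134). Ube2z, called with construct 5 alone, had -0.14 (95% interval -0.29 to 0.00, limma adjusted p = 0.222), and Ube2d2 had -0.09 (95% interval -0.25 to 0.07, limma adjusted p = 0.453). With median-ratio scaling the median change was 0.04 for the E2 genes and -0.0015 for all genes. The constructs then overlapped in each of the 5 genes where construct 7 had lain below. Construct 7 stayed wholly above in Ube2c and Ube2n and came to lie wholly above in Ube2l3.

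Counts for genes around the E2s in the pathway stand beside 5.27% of all genes called with construct 5 and 0.0556% with construct 7, and their medians beside all-gene medians of 0.13 with construct 5 and 0.02 with construct 7. Of 7 tested E1 genes 0 passed with either construct, with a median log2 change of 0.14 with construct 5 and 0.06 with construct 7. Uba1, the main ubiquitin E1, stood at 33.8, 34.3 and 32.8 FPKM with construct 5 and at 30.3, 34.1 and 33.3 FPKM with construct 7, against 28.4, 32.0 and 30.8 FPKM in control. Uba3, which loads the NEDD8 E2s, had a log2 change of 0.21 with construct 5 (limma adjusted p = 0.0761) and 0.27 with construct 7 (limma adjusted p = 0.278). Of 10 tested ubiquitin and ubiquitin-like genes 0 passed (median 0.14 with construct 5 and -0.0024 with construct 7), and of 8 genes with an E2 fold outside the symbol rule 0 passed (median 0.19 with construct 5 and 0.06 with construct 7). Of 8 tested E3 partners of Ube2a and Ube2b, 1 passed, lower with each construct, and it was Ubr4 itself (median of the 8, 0.11 with construct 5 and 0.04 with construct 7). Kcmf1, a RING ligase found in complex with Ubr4 and Ube2a, stood at 42.6, 41.6 and 43.4 FPKM with construct 5 and at 57.0, 45.5 and 53.8 FPKM with construct 7, against 51.3, 49.7 and 52.6 FPKM in control. Its construct 5 libraries lay below all others (log2 change -0.26, limma adjusted p = 0.0845), and its construct 7 libraries spanned the control range (0.02, limma adjusted p = 0.977).

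Protein and upstream features of the genes were also described. Among the 33 with a coding sequence in GENCODE M21, proteins ran from 145 to 1288 residues with a median of 183. The His-Pro-Asn motif of the E2 active site was present in 20, and in 19 of these a cysteine followed 10 or 11 residues after the histidine. The motif was not found in either variant (Ube2v1 and Ube2v2), as known for that class, nor in Ube2z, Ube2o, Ube2w, Ube2j1 and Ube2j2, among others. Of the 26 genes with an upstream window, 25 had more CpG than the median window of all genes, at a median of 23 CpG against 6, and a median G and C content of 64% against 52%. The windows of all genes were not limited to genes expressed in this muscle, so the difference cannot be read as particular to E2 genes. The TATA box (TATAAA) was found in 2 (12.9% of all windows), the CRE (TGACGTCA) in 1 (1.61%), and the core of the interferon-stimulated response element in 0 (3.05%), so not in that of Ube2l6 either.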

How the data were processed

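RNA from 9 tibialis anterior samples was sequenced, and the authors deposited 1 table of FPKM values for 23231 genes. The submitters' processing notes name BWA, STAR, HTSeq and the mouse build mm9; the part each played, tool versions, strand and read length are not given in the sources used here. The members and lists were chosen with earlier results of these data known.

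From the deposited FPKM, log2(FPKM + 1) of the 10794 genes with a mean of at least 1 was fitted with R 4.3.3 and limma 3.58.1 to the 9 libraries at once (lmFit, contrasts.fit, eBayes with trend). The 4 contrasts were each construct and both constructs against control, and construct 7 against construct 5, with Benjamini-Hochberg adjustment over all genes and calls under 0.05. Depth was recovered with GENCODE M21 lengths (71.9% to 74.2% of values under 50 reads came out whole within 0.1 reads). The table gives no counts, and a count test was not run. The fit was tested on simulated data for construct 5 against control (10794 genes, 200 changed): it recovered 60% at a log2 change of 0.5 and 93% at 1, with 5 false among 158 calls. The changed genes were drawn from the more abundant ones, with independent noise and no shift common to all genes. These rates therefore do not cover low genes, changes under 0.5 or data with such a shift.

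Full statistics were given for Ube2a, Ube2b, each called gene and the smallest p with either construct until 12 genes were reached. Ube2l6, Ube2n and Ube2ql1 were given per library or in words because of where their libraries lay. Some items are counted in the totals but not reported here by name or drawn. Windows came from RefSeq (GRCm38.p6, the 250 bases before each start); shared 50-base words, exon overlap and proteins came from GENCODE M21, which is on a later build than mm9. Alternatives were other pseudocounts (0.1, 0.5), filters, scalings, the 6 libraries alone, a replicate block, robust spread and each library left out; counts of groups that do not overlap after median-ratio scaling were added after seeing the data. Drawn with Python 3.11.15, pandas 2.3.3 and matplotlib 3.10.9; proteins were aligned with Biopython 1.88.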

Additional observations from a re-analysis of the deposited data

How the results depend on the processing

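The count of 2 called E2 genes with construct 5 was 1 (Ube2z) with a pseudocount of 0.1 or 0.5, and 0 without a filter, with median-ratio scaling, with quantile normalization, with the 6 libraries of the contrast alone or with a replicate block. It was 2 with a filter at 5 FPKM and with robust spread. Leaving out 1 library gave 0 to 1: it was 1 without construct 5 replicate 3, construct 7 replicate 1 or construct 7 replicate 2, and 0 without any other. The counts of 0 in the other 3 contrasts were 0 under each alternative run.

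For the pairing, correlations of same-numbered libraries in their deviations from the group means ran from -0.36 to 0.31, so the numbers were not taken to pair the samples; under the block the adjusted p was 0.0567 for Ube2z and 0.0698 for Ube2d2.

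The change of Ubr4 with both constructs was -1.34 without a filter (limma adjusted p = 0.0677) and -1.33 without control replicate 3 (0.0544), and ran from -1.43 to -1.25 over the libraries left out. Of 2027 values of E2 genes under an alternative, 0 reversed a call and 27 lost a call, all of Ube2d2 or Ube2z with construct 5. These were the only calls, so most of the 2027 values had no call to lose or reverse. A further 128 moved by more than the replicate spread, 47 of these with median-ratio scaling and 47 with quantile normalization. Alternatives such as robust spread keep the log2 change as it is and could not move it. The cause of the moves was not tested. The 5 genes under 1 FPKM were not tested.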
